A study of Mus musculus with 12 samples.

Results

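The Myc network is a group of basic helix-loop-helix leucine zipper proteins that share partners and DNA sites. It was followed through its 10 genes Myc, Mycn, Mycl, Max, Mxd1, Mxd3, Mxd4, Mnt, Mga and Mlx, taken by gene symbol from the 51467 genes of the count table. The cells were mouse ESCs (embryonic stem cells) and EpiLCs (epiblast-like cells) derived from ESCs, sequenced as 12 RNA libraries with 3 libraries for each cell type and assay. ESCs grew in Knockout DMEM with fetal bovine serum, LIF and the 2i inhibitors PD0325901 and CHIR99021, which hold them in the naive state, and EpiLCs were collected about 56 h after LIF and 2i had been taken off. Cells of every group, total RNA included, received 500 µM 4-thiouridine (4sU) for 30 min before extraction, and each extract was split. Labelled RNA was biotinylated and captured for the 4sU libraries (nascent RNA), and ribosomal RNA was depleted from the rest for the total libraries. Neither the labels nor the methods name a change to a network gene. For the differentiation, the methods name 1 V6.5 ESC line with miR290-mCherry and miR302-GFP reporters. The 3 libraries of a group therefore share 1 line, and p-values measure the spread between cultures of it.

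Myc, Mycn and Mycl are transcription factors that pair with Max, bind the E-box CACGTG and raise transcription of genes for growth, ribosome building and metabolism. Mxd1, Mxd3, Mxd4 and Mnt compete for Max and bring in Sin3 and histone deacetylases, so they lower the same kind of target. Mga joins Max to a Polycomb complex known for silencing germline genes in stem cells, and Mlx pairs with the glucose-sensing Mondo proteins as well as with Mxd1, Mxd4 and Mnt. Myc mRNA and protein are short-lived, and Myc factors support the growth of pluripotent cells.

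Positions are those of the mouse build mm10. Myc is at chr15:61985391-61990374 on the plus strand, Mycn at chr12:12936093-12941914 on the minus strand and Mycl at chr4:122995944-123002485 on the plus strand. Max is at chr12:76937269-76962201 on the minus strand. Mxd1 is at chr6:86647042-86669161, Mxd3 at chr13:55325168-55329758 and Mxd4 at chr5:34173887-34187720, all on the minus strand. Mnt is at chr11:74830920-74845725, Mga at chr2:119897228-119969581 and Mlx at chr11:101087277-101092207, all on the plus strand.

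The E-box that the network binds also stands in promoters of its own genes. Among the 9 members with a RefSeq promoter sequence (GRCm38.p6, 250 bases before to 50 after the start), 4 (44.4%) held CACGTG, which reads the same on both strands, against 1214 (12.003%) of 10114 tested genes and 2349 (7.15%) of all 32851 promoters. The 4 are shown because they hold the network's binding motif, each on its gene's strand with the E-box in capitals.
Max, chr12:76962246-76962263, minus strand, E-box from base -3 and across the start: ggtgagcccggtCACGTG
Mxd4, chr5:34187912-34187941, minus strand, E-box from base -219: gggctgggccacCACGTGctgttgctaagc
Mnt, chr11:74830789-74830818, plus strand, E-box from base -123: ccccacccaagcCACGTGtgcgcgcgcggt
Mlx, chr11:101087238-101087267, plus strand, E-box from base -40: ggtgggttggatCACGTGactgagcctcgc
The promoters of Mycn, Mycl, Mxd1, Mxd3 and Mga held no CACGTG in this window. A match is a description of letters, and no binding was measured here.

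The miR-290 and miR-302 microRNA families, whose loci drive the reporters of this line, share a seed (bases 2 to 8, in capitals). The 2 mature sequences are shown because 5 of the 10 members (50.0%) held the matching site AGCACTT, read on the transcript strand, in the 3′ UTR of 1 principal GENCODE M21 transcript. Among 12230 tested genes with a 3′ UTR, 2025 (16.6%) held it, and 3′ UTR length was not matched between the members and these genes.
mmu-miR-291a-3p: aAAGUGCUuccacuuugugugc
mmu-miR-302b-3p: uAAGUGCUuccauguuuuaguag
The sites follow with 10 bases on either side and the match in capitals, with 1 of the 3 sites of Mga.
Mycn, chr12:12936130-12936156, minus strand: tgcaccttagAGCACTTtgaaatacct
Mxd1, chr6:86648912-86648938, minus strand: gtattcttagAGCACTTgacaggctaa
Mxd3, chr13:55325590-55325616, minus strand: aatttcatgtAGCACTTggccctgctt
Mnt, chr11:74845648-74845674, plus strand: ccatgtaataAGCACTTgcctggaata
Mga, chr2:119965440-119965466, plus strand: ttgtaattccAGCACTTagaagactaa
Myc, Mycl, Max, Mxd4 and Mlx held none. The 3′ UTR of Myc is the shortest of the 10 at 445 bases, and its 2 ATTTA pentamers, the core of AU-rich elements, gave 4.49 per kb, above 91.5% of tested genes. They are shown because Myc also had the lowest ratio of total to nascent RNA among the members. A link between pentamers and ratio was not tested. By count Myc is at percentile 57.2, and 68.5% of tested genes with a 3′ UTR hold an ATTTA. Mnt, next lowest in the ratio, has 1 (0.42 per kb), and Mxd1 and Mga have 5 each. Among members with mean ratios above 0 in both cell types, Mxd3 and Mxd4 have 0 and Mga has its 5. Mycl and Mlx, also above 0, have 2 each (1.01 and 1.91 per kb).
Myc, chr15:61990137-61990161, plus strand: acagatttgtATTTAattgtttttt
Myc, chr15:61990274-61990298, plus strand: aattttttttATTTAaagacatttt

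The 4sU libraries held 3097693 to 5385644 counted reads and the total libraries 9300845 to 21975684, so nascent values of the rarer members carry the larger counting error. ESC replicate 3 stood apart in both assays: its correlation of log2 CPM with the other ESC libraries was 0.960 and 0.966 in 4sU RNA and 0.976 in total RNA with each, against 0.982 and 0.992 between replicates 1 and 2. Results that change without it are given both ways. Of 7 naive markers all 7 fell in EpiLC total RNA, and of 5 primed markers 4 rose. The 7 fibroblast markers summed to 3.89 to 4.74 CPM in ESC and 14.6 to 18.9 CPM in EpiLC total libraries, with 2 and 1 of them at 0 reads. The 6 endoderm and mesoderm markers summed to 6.39 to 8.76 and 14.1 to 17.3 CPM and the 4 neural markers to 69.9 to 73.3 and 65.9 to 87.4 CPM. Their part in the results below was not tested. Levels are counts for a fixed library total (CPM) after TMM scaling, a trimmed mean of log ratios between libraries, and in bulk RNA a change in the share of cells that express a gene and a change per cell cannot be told apart.

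Myc rose 10.03-fold in nascent and 10.1-fold in total RNA from ESCs to EpiLCs. Mycn was called higher in nascent but not in total RNA, and Mxd4 in total but not in nascent RNA. A gene was called changed at a limma adjusted p under 0.05 and a log2 change beyond 1 in either direction. In total RNA 2 of the 10 members were called higher in EpiLCs (16.3% of the 14731 genes tested) and 0 lower (11.2%). In nascent RNA again 2 were called higher (11.9% of all genes) and 0 lower (13.5%). By adjusted p alone, 4 members were higher (31.3% of all genes) and 4 lower (32.1%) in total RNA, and 3 higher (23.7%) and 2 lower (28.8%) in nascent RNA. The 0 lower calls stood against 4 members lower at an unadjusted p under 0.05 in total and 3 in nascent RNA, and edgeR and DESeq2 also called 0 lower. The libraries of the cell types did not overlap for 8 members in total RNA (68.6% of all genes) and for 6 in nascent RNA (60.7%). The median log2 change of the members was 0.08 in total and 0.01 in nascent RNA, beside 0.02 and -0.09 over all genes tested. All 10 members passed the filter of 3 CPM in 3 libraries. Mxd4 reached it with every library only in the EpiLC groups.

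**Figure D1:**
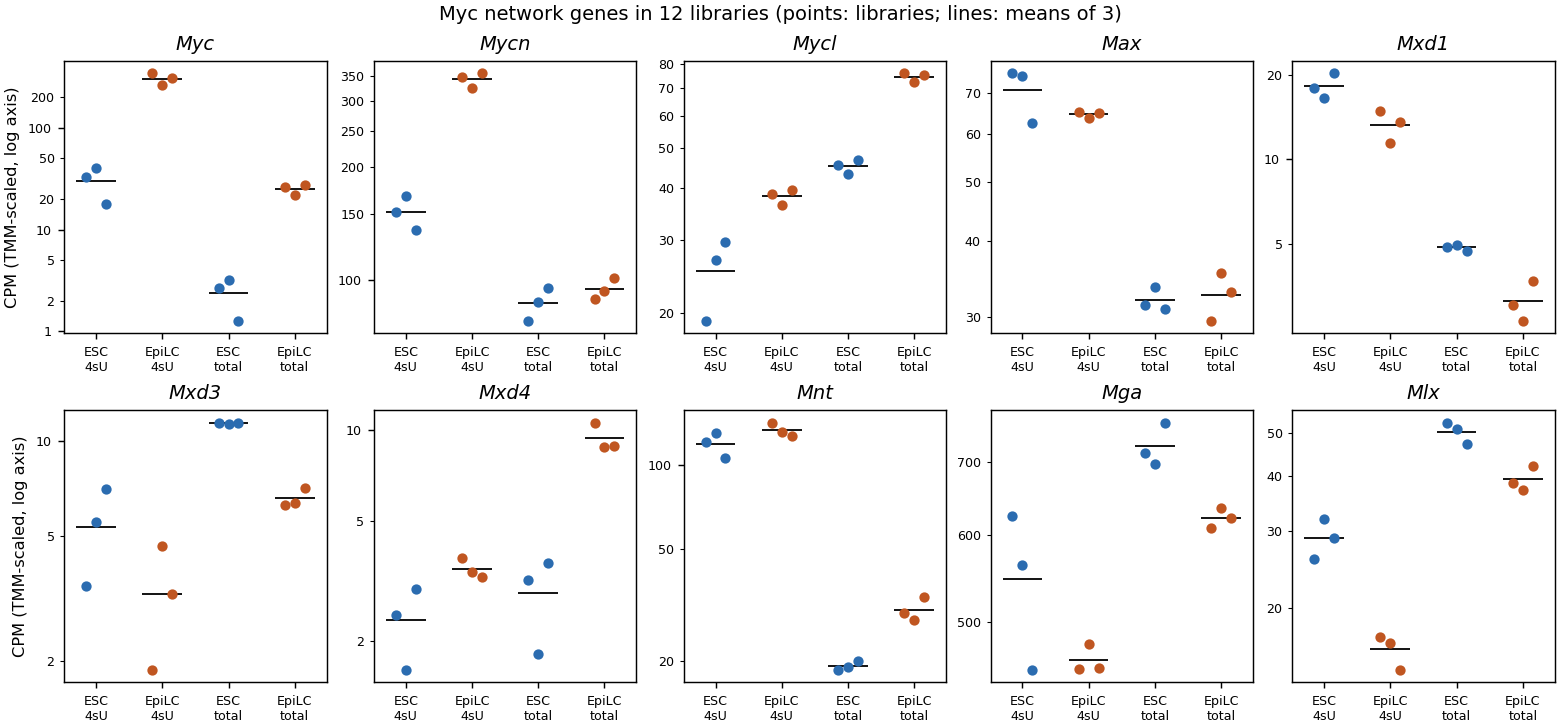
Level of each Myc network gene in CPM (log axis, its range differing between panels) in ESC (blue) and EpiLC (orange) 4sU and total libraries, with 1 point per library and a line at the mean of 3. The EpiLC points of Myc lie above its ESC points in both assays, while those of Mycn lie apart in 4sU and overlap in total RNA.

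Myc, the founding member of the family, showed the widest gap. Its nascent level was 32.7, 40.4 and 17.8 CPM in the 3 ESC libraries and 340.8, 260.7 and 309.6 CPM in the 3 EpiLC libraries. The cell types did not overlap, and ESC replicate 3 was the lowest of the 6. The log2 change of nascent Myc RNA was 3.33 ± 0.22 (SE, 3 libraries each), a 10.03-fold rise (adjusted p = 2.67e-08). In total RNA Myc stood at 2.67, 3.23 and 1.28 CPM in ESCs, from 46, 64 and 13 reads, and at 26.0, 21.7 and 27.6 CPM in EpiLCs. The cell types again lay apart with ESC replicate 3 lowest. Total Myc RNA changed by 3.33 ± 0.35 on the log2 scale, 10.1-fold with a 95% interval of 5.97 to 17.02 (adjusted p = 1.18e-06). Without both ESC replicate 3 libraries the log2 changes of Myc were 3.02 in nascent and 3.06 in total RNA, and both remained called.

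Mycn, the family member best known from neural tumours and from early embryos, was already high in ESCs. Its nascent level was 151.9, 167.6 and 136.3 CPM in ESCs and 348.5, 326.3 and 355.8 CPM in EpiLCs. The cell types did not overlap, and nascent Mycn RNA rose 2.26-fold (log2 change 1.17 ± 0.10 (SE), adjusted p = 2.22e-07). In total RNA Mycn stood at 78.2, 87.8 and 95.3 CPM in ESCs and at 89.4, 93.9 and 101.2 CPM in EpiLCs. These ranges overlapped, and the fold was 1.10 with a 95% interval of 0.953 to 1.26 (adjusted p = 0.237). Without both ESC replicate 3 libraries the log2 change of total Mycn RNA was 0.18 (adjusted p = 0.0328, from 0.0328 to 0.70 over the alternatives), still short of the fold threshold.

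Mycl, the remaining Myc factor, was higher in EpiLCs in both assays by less than the fold threshold. Total RNA held 45.5, 43.4 and 47.0 CPM of Mycl in ESCs and 75.9, 72.3 and 75.2 CPM in EpiLCs. The log2 change of total Mycl RNA was 0.72 ± 0.09 (SE), a fold of 1.65 (adjusted p = 9.24e-06). Nascent RNA held 19.2, 26.8 and 29.7 CPM in ESCs and 38.8, 36.4 and 39.7 CPM in EpiLCs, a log2 change of 0.63 ± 0.14 (SE) (adjusted p = 0.00185). The libraries of the cell types did not overlap in either assay.

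Per length, the makeup of the 3 Myc factors differed between cell types and between assays. In total RNA Myc made up 2.23% ± 1.0 (SD, n = 3) of the summed RPKM (CPM per kilobase of exon) of Myc, Mycn and Mycl in ESCs and 15.9% ± 1.39 in EpiLCs. Mycn gave 69.8% ± 2.3 and 52.5% ± 1.83, and Mycl 28.0% ± 1.86 and 31.6% ± 1.26. In nascent RNA Myc made up 16.5% ± 4.44 in ESCs and 48.2% ± 2.51 in EpiLCs, close to the 47.8% ± 2.36 of Mycn there. The sum of the 3 was 73.5 ± 9.82 RPKM in ESC and 257 ± 21.6 RPKM in EpiLC nascent RNA, and 44.4 ± 2.96 and 64.5 ± 3.07 RPKM in total RNA. Neither pair of ranges overlapped.

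**Figure D2:**
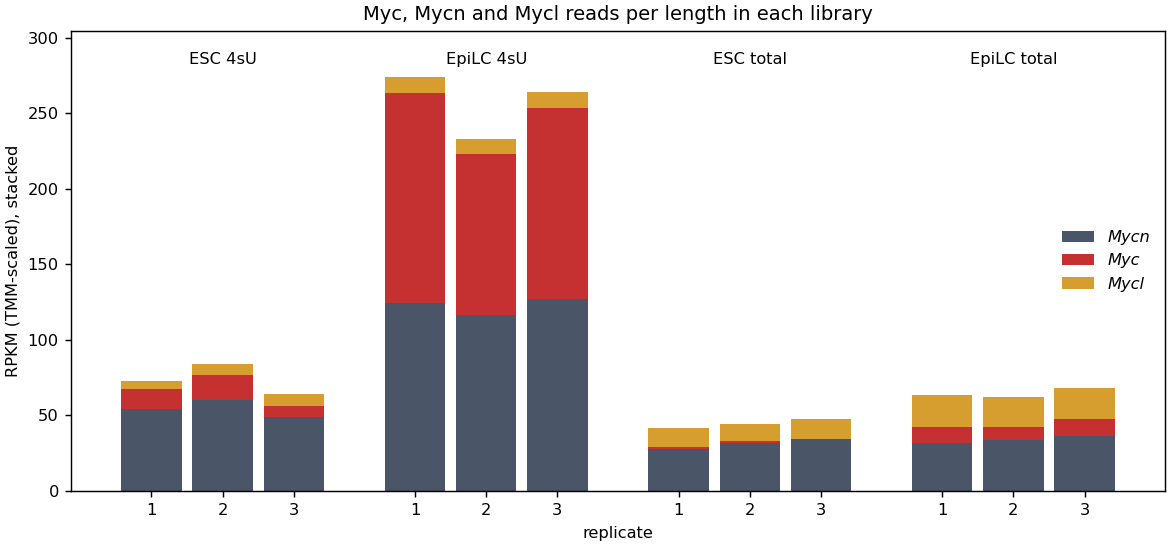
Stacked level per length (RPKM) of Mycn, Myc and Mycl in each of the 12 libraries, numbered by replicate within its group. The EpiLC 4sU bars reach 232.9 to 274.2 RPKM with Myc and Mycn in near equal parts, while the ESC total bars of 41.4 to 47.3 RPKM are mostly Mycn.

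Max, the shared partner, gave no difference that passed the test. Its nascent level was 62.5 to 75.3 CPM in ESCs and 63.7 to 65.2 CPM in EpiLCs, and its total level 30.9 to 33.6 and 29.6 to 35.4 CPM. The ranges overlapped in both assays. The fold of total Max RNA was 1.02 with a 95% interval of 0.885 to 1.17 (adjusted p = 0.817), and its log2 change turned to -0.0024 with median of ratios scaling. The fold of nascent Max RNA was 0.909, with an interval of 0.783 to 1.06 (adjusted p = 0.267). Without both ESC replicate 3 libraries nascent Max RNA had a log2 change of -0.24 (adjusted p = 0.0298, from 0.0298 to 0.714 over the alternatives). A gene model named Gm47218 lies inside Max on the same strand (18.1 to 28.0 CPM in ESC nascent RNA), and reads in their shared exons could not be told apart by strand.

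The Mxd repressors did not move together. Mxd4 was near the lower limit of measurement in ESCs, with 3.19, 1.82 and 3.64 CPM (55, 36 and 37 reads) of total RNA, and stood at 10.6, 8.82 and 8.86 CPM in EpiLCs. The cell types lay apart. Total Mxd4 RNA rose 3.56-fold (log2 change 1.83 ± 0.22 (SE), adjusted p = 4e-06). Nascent Mxd4 RNA was 2.45, 1.61 and 2.97 CPM in ESCs and 3.77, 3.39 and 3.26 CPM in EpiLCs, from 9 to 16 reads a library. The 3 EpiLC values were above the 3 ESC values, but the fold of 1.56 had a 95% interval of 0.836 to 2.90 (adjusted p = 0.216).

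Mxd1 and Mxd3 were lower in EpiLC total RNA, each by less than the fold threshold. Mxd1, a repressor known from differentiating cells, stood at 4.88, 4.94 and 4.72 CPM in ESC and 3.02, 2.66 and 3.68 CPM in EpiLC total RNA, and its log2 change was -0.64 ± 0.19 (SE) (adjusted p = 0.0084). Without EpiLC total replicate 2 its log2 change was -0.52 (adjusted p = 0.0584, from 0.00472 to 0.0584 over the alternatives). In nascent RNA Mxd1 ranged over 16.6 to 20.3 CPM in ESCs and 11.4 to 14.8 CPM in EpiLCs, a log2 change of -0.45 ± 0.16 (SE) (adjusted p = 0.0275), which became -0.33 (adjusted p = 0.155, the highest of the alternatives) without EpiLC 4sU replicate 2. Mxd3, known from proliferating cells, was at 11.3 to 11.4 CPM in ESC and 6.26 to 7.07 CPM in EpiLC total RNA. Its log2 change there was -0.79 ± 0.17 (SE) (adjusted p = 0.000863), while in nascent RNA it was -0.68 ± 0.35 (adjusted p = 0.115) from 8 to 31 reads a library. The nascent change of Mxd3 moved with single libraries: it was -0.31 without EpiLC 4sU replicate 1 and -1.003 without EpiLC 4sU replicate 2, and its adjusted p over the alternatives ran from 0.0257, without ESC 4sU replicate 1, to 0.489.

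Mnt, the broadly expressed repressor that pairs with Max and Mlx, was higher in EpiLC total RNA. The 3 ESC libraries held 18.58, 19.02 and 19.98 CPM of total Mnt RNA and the 3 EpiLC libraries 29.7, 28.0 and 33.8 CPM. The log2 change was 0.67 ± 0.11 (SE), a fold of 1.59 and short of the fold threshold (adjusted p = 6.69e-05). Nascent Mnt RNA was 121.4, 130.6 and 106.5 CPM in ESCs and 142.4, 131.8 and 127.4 CPM in EpiLCs, and these ranges overlapped. The nascent fold was 1.119 with a 95% interval of 0.974 to 1.29 (adjusted p = 0.161).

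Mga and Mlx, which carry the network to Polycomb and Mondo partners, were somewhat lower in EpiLC total RNA. Mga held 696.7 to 759.7 CPM in ESC and 609 to 634.6 CPM in EpiLC total RNA, a log2 change of -0.22 ± 0.09 (SE) (adjusted p = 0.0464). It passed by little: the change was -0.13 with library totals alone as scaling (adjusted p = 0.223, from 0.00177 to 0.223 over the alternatives). Nascent Mga RNA overlapped between the cell types, and its log2 change was -0.24 ± 0.10 (adjusted p = 0.0543) and, without both ESC replicate 3 libraries, -0.38 (adjusted p = 1.62e-05, up to 0.202 over the alternatives). Mlx held 52.9, 51.0 and 47.2 CPM in ESC and 38.4, 37.2 and 42.1 CPM in EpiLC total RNA, with no overlap and a log2 change of -0.36 ± 0.09 (SE) (adjusted p = 0.00206). Its nascent RNA was 25.9, 32.0 and 28.9 CPM in ESCs and 17.2, 16.7 and 14.5 CPM in EpiLCs, a log2 change of -0.83 ± 0.15 (SE) (adjusted p = 0.000308).

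**Figure D3:**
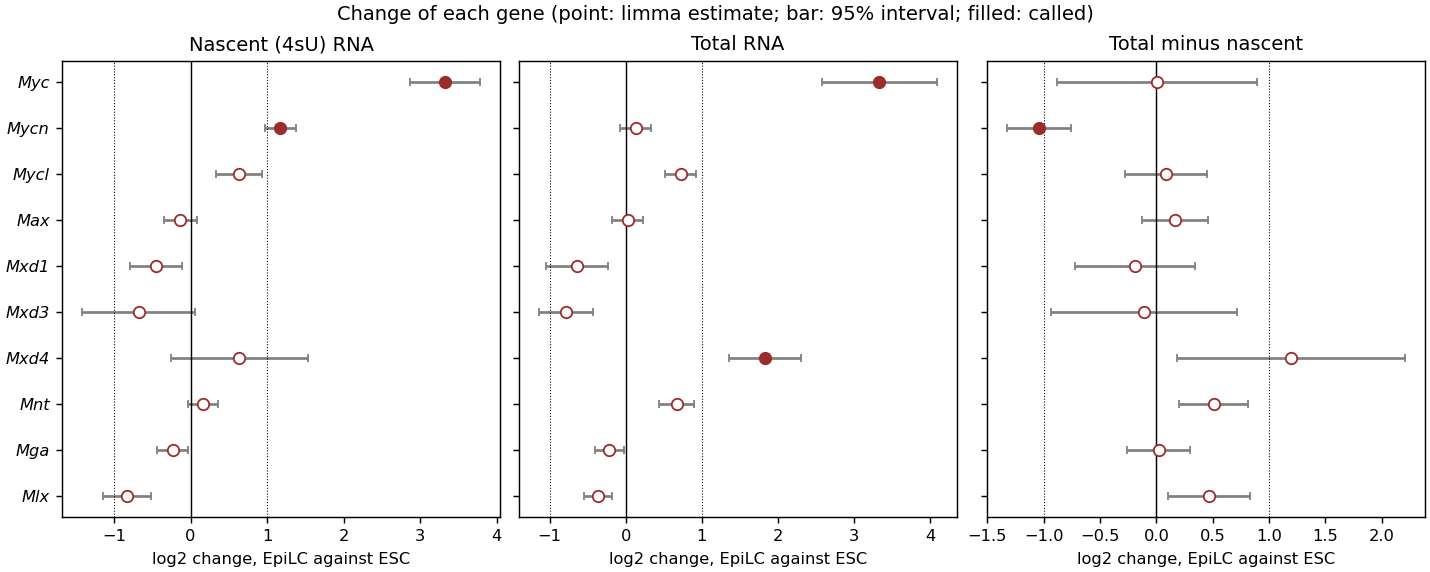
Log2 change from ESC to EpiLC of each member in nascent RNA, in total RNA and in the difference of both, as the limma estimate with its 95% interval; filled points were called and dotted lines mark a log2 change of 1. Filled points are Myc (3.33) and Mycn (1.17) in nascent RNA, Myc (3.33) and Mxd4 (1.83) in total RNA and Mycn (-1.04) in the difference.

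Relative stability was taken as log2 of total over 4sU RNA, and its change between the cell types is the total change minus the nascent change. The methods read this ratio as stability by assuming steady RNA levels within each state. Whether that held in either cell type was not tested. For a total and a 4sU library of the same number, the value of Mycn was -0.96, -0.93 and -0.52 in ESCs and -1.96, -1.80 and -1.81 in EpiLCs. The cell types did not overlap, and ESC replicate 3 was the highest. The change of Mycn was -1.04 ± 0.13 (SE), a 2.06-fold lower ratio in EpiLCs (adjusted p = 0.00153). Mycn was the 1 member called in this comparison, as lower (0.305% of all genes were), and 0 members were called higher (1.24%). By adjusted p alone the counts were also 1 lower (1.89% of all genes) and 0 higher (2.69%); at an unadjusted p under 0.05, 3 members were higher, and edgeR and DESeq2 called 0 higher. The size of the Mycn change sat at the fold threshold. It was -0.96 without ESC 4sU replicate 3, -0.98 without ESC total replicate 3 and -0.89 without both, with adjusted p at or under 0.00216 in these 3 fits, so the fold was lost and not the p.

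Myc showed no such change. Its log2 ratio was -3.60, -3.64 and -3.76 in ESCs and -3.71, -3.58 and -3.49 in EpiLCs, in the lowest 6.2% and 2.1% of tested genes. The change was 0.01 ± 0.41 (SE), with a 95% interval of the fold from 0.543 to 1.86 (adjusted p = 0.995). In a limma fit with each same-numbered library pair of a cell type as a block it was 0.05 (adjusted p = 0.892). The 3 ESC total libraries held 13 to 64 Myc reads, and the sign of this change turned in several alternative fits. Mnt followed at a mean of -2.63 ± 0.19 (SD, n = 3) in ESCs and -2.14 ± 0.19 in EpiLCs, and Mxd1 at -1.91 ± 0.17 and -2.09 ± 0.20. Max stood at -1.14 ± 0.12 and -0.99 ± 0.15. Mycl, Mxd3, Mxd4, Mga and Mlx had means above 0 in both cell types, beside a median over all genes of 0.04 in ESCs and 0.15 in EpiLCs.

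Mxd4 and Mnt had higher ratios in EpiLCs, and neither passed the test in the fit without a replicate block. Mxd4 stood at 0.34, 0.12 and 0.25 in ESCs and at 1.46, 1.35 and 1.39 in EpiLCs. The change was 1.19 ± 0.47 (SE) with a 95% interval of 0.18 to 2.20 (adjusted p = 0.151). With each same-numbered library pair of a cell type as a block, the change was 1.15 and Mxd4 was called. Its adjusted p was then 0.0463, against up to 0.279 over the other alternatives. Mnt stood at -2.71, -2.78 and -2.41 in ESCs and at -2.26, -2.23 and -1.92 in EpiLCs, a change of 0.51 ± 0.14 (adjusted p = 0.0563), or 0.62 without both ESC replicate 3 libraries (adjusted p = 0.00209, up to 0.306 over the alternatives). The change of Mlx was 0.47 ± 0.17 (adjusted p = 0.124). Of the 5 members whose 3′ UTR holds the AGCACTT site printed above, the changes were -1.04 for Mycn, -0.19 for Mxd1, -0.11 for Mxd3, 0.51 for Mnt and 0.02 for Mga.

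**Figure D4:**
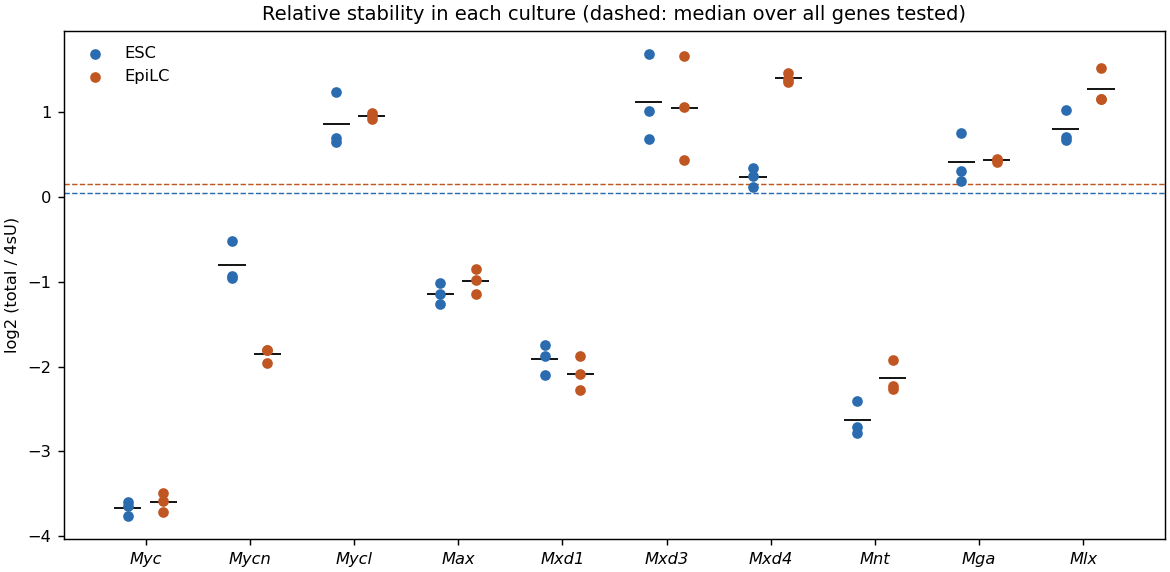
Log2 ratio of total to 4sU RNA of each member for the 3 library pairs of ESCs (blue) and of EpiLCs (orange), with lines at the means and dashed lines at the median of all tested genes. Myc lies lowest, at means of -3.67 and -3.59, and Mycn moves from a mean of -0.80 to -1.86.

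Levels were compared between members only per length. In ESC total RNA the order by mean RPKM was Mga (51.9), Mycn (31.1), Mlx (25.3), Max (16.3), Mycl (12.4), Mxd3 (8.57), Mnt (4.18), Mxd1 (1.04), Myc (0.978) and Mxd4 (0.743). The last 3 overlapped in turn, and each other neighbour in this order lay apart in all 3 libraries. In EpiLC total RNA it was Mga (44.6), Mycn (33.8), Mycl (20.4), Mlx (19.7), Max (16.7), Myc (10.3), Mnt (6.64), Mxd3 (4.94), Mxd4 (2.43) and Mxd1 (0.668), with overlap only between Mycl and Mlx. Myc thus took the ninth place in ESC and the sixth in EpiLC total RNA. In nascent RNA the leading members were Mycn (54.2 RPKM), Mga (39.3) and Max (36.2) in ESCs, with Myc in the sixth place at 12.4 RPKM. In EpiLCs they were Myc (124.1 RPKM), Mycn (122.5) and Mga (33.1), and Myc and Mycn overlapped. Mnt stood at 26.0 and 29.2 RPKM in nascent RNA, the fourth and the fifth place, and at the seventh in total RNA of both cell types.

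The genes whose log2 CPM over the 12 libraries was most like that of each Myc factor were sought among the 10172 tested genes that averaged 10 CPM or more. The libraries share 4 groups, so these correlations are a description of group means. For Myc they were Lpar6 (Pearson's r = 0.996), Gm37352 (0.991) and Cdk2ap1 (0.988). Lpar6, a receptor for lysophosphatidic acid, rose in total RNA by 2.08 ± 0.24 (SE) on the log2 scale and Cdk2ap1, a regulator of the cell cycle kinase Cdk2, by 1.27 ± 0.15. For Mycn they were Tor1aip1 (0.978), Zfp326 (0.976) and Eri1 (0.975), and for Mycl Sdc1 (0.990), Mapkapk2 (0.989) and Basp1 (0.989). Between the factors r was 0.883 for Myc with Mycn, -0.183 for Myc with Mycl and -0.433 for Mycn with Mycl. These values span both assays, and Mycl had more CPM in total than in 4sU RNA while Myc and Mycn had less. The negative signs therefore do not mean opposite changes between cell types. All 3 factors had higher means in EpiLCs than in ESCs in both assays, though total Mycn RNA did not pass the test.

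The lists of network genes were read beside the members. Of the 3 further network genes, Mlxip, a Mondo partner of Mlx, rose in total RNA (log2 change 1.20 ± 0.16 (SE), adjusted p = 9.54e-06) from 16.3 to 30.2 CPM in ESCs to 44.5 to 51.6 CPM in EpiLCs. Mxi1, a further Mxd repressor, had log2 changes of -0.59 ± 0.09 in total and -0.85 ± 0.11 in nascent RNA, with adjusted p of 2.89e-05 and 2.25e-05 and neither beyond the fold threshold. Mlxipl, the carbohydrate response factor, did not pass the test (0.39 ± 0.32, adjusted p = 0.298).

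Of 42 growth genes that Myc is known to raise, 1 was called in total RNA, as higher (16.3% of all genes were), and 41 were not called. It was Ccnd2, the cyclin D2 gene, at 6.33, 7.77 and 0.886 CPM in ESCs and 26.3, 23.4 and 25.4 CPM in EpiLCs (log2 change 2.49 ± 0.43 (SE), adjusted p = 0.000151), with ESC replicate 3 far below the others. By adjusted p alone 6 of the 42 were higher (31.3% of all genes) and 12 lower (32.1%) in total RNA, and 13 higher (23.7%) and 8 lower (28.8%) in nascent RNA. The median log2 change of the list was -0.01 in total RNA and 0.09 in nascent RNA, beside 0.02 and -0.09 over all genes. Its lowest change in total RNA was -0.78.

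Of 7 genes that Myc is known to repress, 1 rose (16.3% of all genes did) and 1 fell (11.2%) in total RNA. The list median was -0.04. Cdkn1c, which codes for the cyclin kinase inhibitor p57, stood at 9.81, 8.83 and 4.63 CPM in ESCs and at 47.7, 51.9 and 51.4 CPM in EpiLCs (log2 change 2.67 ± 0.19 (SE), adjusted p = 1.62e-08). Cdkn1a, which codes for the inhibitor p21, stood at 40.01, 35.51 and 51.18 CPM in ESCs and at 23.02, 18.41 and 20.01 CPM in EpiLCs (-1.02 ± 0.20, adjusted p = 0.000472). The 2 inhibitors thus moved in opposite directions.

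Of 20 cofactor and turnover genes, 1 was called lower in total RNA (11.2% of all genes were) and 0 higher (16.3%). It was Wdr5, a subunit of histone methyltransferase complexes that binds Myc and also belongs to the Mga complex list. Wdr5 stood at 492.7, 482.3 and 532.4 CPM in ESCs and at 242.0, 242.0 and 248.6 CPM in EpiLCs (log2 change -1.04 ± 0.07 (SE), adjusted p = 8.52e-09). The list median was -0.07. The 11 corepressor genes of Mxd and Mnt had log2 changes from -0.63 to 0.96 in total RNA, within the fold threshold. By adjusted p alone 1 was higher (31.3% of all genes) and 6 lower (32.1%). Of 13 Mga complex partners, 1 rose (16.3% of all genes did), 1 fell (11.2%) and 11 were not called. The gene that rose was Yaf2, a Polycomb subunit, at 10.7 to 12.7 CPM in ESCs and 31.1 to 33.5 CPM in EpiLCs. Its log2 change was 1.46 ± 0.09 (SE) (adjusted p = 6.71e-09), and the gene that fell was Wdr5.

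The list with the most calls was that of 17 germline genes that Mga is known to keep silent, of which 14 were tested. In total RNA 9 of the 14 rose (16.3% of all genes did), 2 fell (11.2%) and 3 were not called, and the median log2 change was 1.141. By adjusted p alone 9 were higher (31.3% of all genes) and 5 lower (32.1%), so the 3 not called were lower by that rule. In nascent RNA 5 rose (11.9%) and 2 fell (13.5%), with a median of 0.92. Adjusted p alone gave 5 higher (23.7%) and 3 lower (28.8%) there. Ddx4, a germ cell RNA helicase, stood at 14.9, 17.5 and 11.2 CPM in ESCs and at 58.0, 58.8 and 62.7 CPM in EpiLCs (log2 change 2.01 ± 0.12 (SE), adjusted p = 3.35e-09). Mael, which acts with piRNAs, changed by 1.90 ± 0.15 (adjusted p = 5.02e-08) and Meioc, a meiosis gene, by 1.83 ± 0.19 (adjusted p = 9e-07). Hormad1, a protein of meiotic chromosome axes, fell from 21.6, 25.8 and 36.1 CPM to 3.35, 4.55 and 3.78 CPM (log2 change -2.76 ± 0.25 (SE), adjusted p = 2.79e-07), and Dazl, a germ cell RNA-binding protein, changed by -1.35 ± 0.15 (adjusted p = 2.04e-06). Part of this list was low throughout, since 3 genes did not reach the filter. The largest rises in total RNA, of Tdrd1 (5.01), Tdrkh (2.95) and Taf7l (2.77), did not meet the rule for named genes on level and overlap. A gene low in ESCs can pass the filter through its EpiLC libraries alone, which can tilt the count toward rises. How far this held here was not tested, and the list was chosen with earlier results of these data known.

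In relative stability limma called 0 of the 107 tested genes of these lists (1.24% of all genes were called higher and 0.305% lower). By adjusted p alone 2 were higher (2.69% of all genes) and 9 lower (1.89%), and at an unadjusted p under 0.05 the counts were 16 and 21. edgeR called 1, Dazl, and DESeq2 called 0. Odc1, the ornithine decarboxylase gene and a growth target, lay at the fold threshold with a change of 0.99, and was called with library totals alone (1.06) and in 6 of the 12 fits that left out 1 library.

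**Figure D5:**
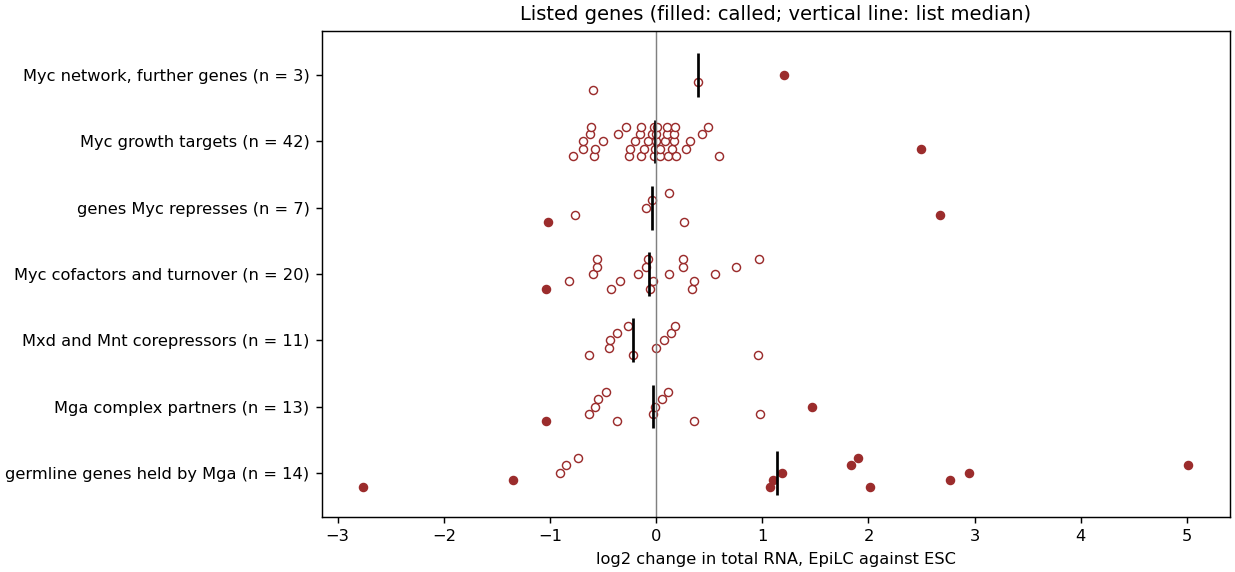
Log2 change in total RNA of each tested gene of the 7 network lists (1 point per gene, filled where called, shifted vertically for legibility) with a line at each list's median. The growth genes crowd around their median of -0.01 with Ccnd2 alone at 2.49, and the germline genes spread from -2.76 to 5.01.

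Genes that overlap or adjoin the members gave the local setting. Of 25 such genes 16 were tested, and in total RNA 2 fell (11.2% of all genes did), Fntb beside Max (log2 change -1.52 ± 0.08 (SE), adjusted p = 1.02e-09) and Zfyve28 beside Mxd4 (-2.71 ± 0.27, adjusted p = 6.56e-07). In nascent RNA 3 fell (13.5% of all genes did), Fntb, Zfyve28 and Gm44292, a gene model inside Mxd1 on the same strand (-1.06 ± 0.29, adjusted p = 0.00725). Zfyve28 fell where its neighbour Mxd4 rose in total RNA. Prelid1, Gm42846 and Psmc3ip overlap Mxd3, Mxd4 and Mlx on the opposite strand, and strand-specific counting kept their reads apart; Prelid1 and Psmc3ip did not pass the test in either assay, and Gm42846 was not tested. The gene models next to Myc had at most 1 read in any library.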

How the data were processed

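The 12 libraries (3 each of ESC and EpiLC 4sU and total RNA) were grouped by their labels. The deposited values are raw read counts per gene: the authors trimmed strand-specific single-end reads with cutadapt 1.14, aligned them to mm10 with STAR 2.5.3a, kept unique alignments and summed exon reads of GENCODE M14 genes with featureCounts 1.5.3. The table's 92 spike-in entries held no reads, so values are relative. The deposited gene length (exon bases) gave RPKM. Symbols came from GENCODE M21, which named 51274 of 51467 gene IDs.

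The 14731 genes that reached 3 CPM in 3 or more libraries were fitted in 1 model over the 12 libraries by limma-voom, with TMM from edgeR (versions: R 4.3.3, edgeR 4.0.16, limma 3.58.1), after the study's methods, and p-values were Benjamini-Hochberg adjusted over all of them. Correlations and lists were computed in Python 3.11.15. SEs and p-values cover the spread between libraries. Reads carried no molecular identifiers.

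The members, the 7 lists and the tests were chosen with earlier results of these data known. Beside the members, the text names, per list, up to 3 rises and 3 falls called in total RNA that averaged 10 CPM or more and showed no overlap, the 3 genes most like each Myc factor, and neighbours. Alternatives were 2 other scalings, TMM within each assay, no filter, DESeq2 1.42.0, the quasi-likelihood test of edgeR, a replicate block, adjusted p alone, and libraries left out. The block was the replicate number for total and for nascent RNA, and the same-numbered library pair of a cell type for stability. Promoters and miRNAs were RefSeq's.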

Additional observations from a re-analysis of the deposited data

Results flagged for a closer look

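The Mycn result was marked because the effect differed between the assays by a test of the difference itself. Mycn rose in nascent RNA by 1.17 ± 0.10 (SE) and changed in total RNA by 0.13 ± 0.09 on the log2 scale, a difference of -1.04 ± 0.13 between the assays (limma interaction, adjusted p = 0.00153). The 3 ESC library pairs (-0.96, -0.93 and -0.52) all lay above the 3 EpiLC pairs (-1.96, -1.80 and -1.81). Over the alternatives the adjusted p ranged up to 0.00942 and the difference from -1.13 to -0.89.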

How the results depend on the processing

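In total and in nascent RNA the 2 members called (Myc and Mxd4, Myc and Mycn) were the same in each alternative except adjusted p alone, which gave 8 and 5 members. In stability, the count of 1 member (Mycn) became 0 with library totals alone, without both ESC replicate 3 libraries and in 2 of the 12 fits that left out 1 library (range 0 to 1), and 2 with the replicate block. Mycn's stability change was -0.98 with library totals alone. Of listed genes, limma called 17 in total and 10 in nascent RNA. The counts stayed within 1.5 times of these in all alternatives except adjusted p alone. By that rule 27 were higher and 36 lower in total RNA, and 29 higher and 26 lower in nascent RNA. In stability limma called 0 listed genes. There library totals alone and edgeR gave 1, the replicate block 2, and leaving out both ESC replicate 3 libraries 3. Fits without 1 library gave 0 to 2, and adjusted p alone 2 higher and 9 lower. Of 630 log2 values under the alternatives, 25 turned sign, and none of these passed the test. The 630 include 30 values under adjusted p alone, which repeat the main fit and could not turn. Max in total RNA was -0.0024 with median of ratios scaling, -0.0404 without a filter and -0.0032 without both ESC replicate 3 libraries. Myc in stability was -0.0784 with median of ratios, -0.0479 with TMM within each assay, -0.087 without a filter, -0.0033 with edgeR and -0.0664 with DESeq2. Mga in stability was -0.065, -0.0353 and -0.072 under the first 3 of these and -0.0555 with DESeq2, and Mycl in stability -0.0058 without a filter. Leaving out 1 library gave -0.0291 to 0.0968 for Max in total RNA and, in stability, -0.26 to 0.30 for Myc, -0.0016 to 0.29 for Mycl, -0.47 to 0.23 for Mxd3 and -0.0628 to 0.158 for Mga. The cause of these shifts was not tested. The order of levels per length was the same with library totals alone.

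Replicate numbers are shared by the groups, but the labels do not say what they mark. Deviations from the group means correlated at 0.163, 0.296 and 0.408 between same-numbered ESC 4sU and total libraries and at 0.023 to 0.075 for EpiLCs. Between cell types they correlated at -0.078 to -0.009. The methods say that each extract was split, but whether a 4sU and a total library of 1 number share an extract was not settled. Ratios per number join libraries by that number, and the fit without the block, which leaves such a pairing out, was kept as the main one. Its stability SEs are given here beside the SDs of the ratios. An SE of a difference between cell types and an SD within a cell type are unlike measures. Mxd4 had 9 to 16 reads in a 4sU library, so a small SD of its ratios is itself uncertain. Why SE and SD differ was not tested. For Mxd4 the ratios had SDs of 0.11 in ESCs and 0.06 in EpiLCs, against an SE of 0.47. For Myc the SDs were 0.08 and 0.11, against an SE of 0.41. For Mycn the SE of 0.13 lay between SDs of 0.25 and 0.09. With each same-numbered library pair of a cell type as the block, Mxd4 was also called in stability. Its change was 1.15 (adjusted p = 0.0463, against up to 0.279 over the other alternatives). Depth limits Mxd3 and Mxd4 most, with 8 to 31 reads of either in a 4sU library.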

Other observations

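Pvt1 and Bmyc were looked at after their values were seen. Pvt1, a long non-coding gene that starts 47673 bases past the end of Myc on the same strand, moved against Myc. Its nascent level was 64.7, 46.5 and 46.5 CPM in ESCs and 18.6, 17.4 and 19.0 CPM in EpiLCs, and the cell types lay apart (log2 change -1.51 ± 0.16 (SE), adjusted p = 2.29e-06). In total RNA Pvt1 stood at 13.01, 13.67 and 12.89 CPM in ESCs and at 7.26, 7.21 and 6.37 CPM in EpiLCs, a log2 change of -0.93 ± 0.16 (adjusted p = 0.000173) short of the fold threshold. Nascent Myc and Pvt1 RNA thus changed by 3.33 and -1.51 in the same libraries. Bmyc, a rodent relative of Myc, held 7.38 to 9.65 CPM in ESC and 9.61 to 13.7 CPM in EpiLC total RNA (log2 change 0.57 ± 0.19, adjusted p = 0.0191), and these ranges overlapped.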
